A study of Mus musculus with 24 samples.

Results

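The genes described here are a list of T cell and thymocyte genes, given by gene symbol, whose transcripts were measured in the thyroid gland of mice without the adaptor protein XB130. Of 36 listed genes, 34 had a probe set with their symbol among the 23185 genes measured, and Lck and Tcf7 were not analysed here. Whole thyroid glands of 24 male mice, kept free of specific pathogens, were collected at the ages W2, W4 and W12 (2 weeks, 4 weeks and 3 months per the labels) from mice with a deletion of Xb130 in all cells (Xb130-/-) and from wild-type mice (Xb130+/+), with 4 mice per genotype and age and 1 Affymetrix mouse gene array per mouse. The design compared the genotypes at each age and followed the thyroid gland over postnatal development. Mice are named by the numbers of their labels, and the values of a group are given in the order of these numbers. The Xb130-/- mice were LH7705, LH7707, LH7709 and LH7711 at W2, LH7713, LH7715, LH7717 and LH7719 at W4, and LH7721, LH7723, LH7725 and LH7727 at W12. Values are log2 expression levels, so a difference of 1 is a doubling, and levels of different genes cannot be compared with each other on such arrays. The number of arrays, 4 per group, limits the precision.

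The transcript of the deleted gene, Afap1l2, lay between 8.97 and 9.60 in the 12 Xb130-/- arrays and between 10.41 and 11.05 in the 12 Xb130+/+ arrays, with no overlap at any age. The tissue was checked by its thyrocyte genes, and Tg, which encodes thyroglobulin, lay between 13.82 and 14.02 in all arrays, close to the highest value of the table, so that its level says nothing about equal thyrocyte content. The thyroid transcription factor gene Pax8 lay between 12.60 and 12.98. Within a group, arrays correlated with r between 0.981 and 0.995 across genes, which are not independent replicates. Before the results, one feature of the libraries has to be stated, because most values below rest on it. In 6 of the 12 Xb130-/- arrays (3 at W2, namely LH7707, LH7709 and LH7711, 1 at W4, namely LH7717, and 2 at W12, namely LH7725 and LH7727) the mean of Rag1, Rag2, Dntt and Ptcra lay between 6.70 and 9.22, more than 0.5 above the highest Xb130+/+ array, while the other 6 lay between 5.19 and 5.58 and the 12 Xb130+/+ arrays between 5.25 and 5.95. These 6 arrays were picked by the outcome itself, so they are described mouse by mouse and form no group of the study, and results are also given without them.

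T cells arise in the thymus from precursors that first assemble antigen receptor genes with the recombinases RAG1 and RAG2 and the polymerase TdT, display a pre-T cell receptor, pass through a stage with both coreceptors CD4 and CD8, and leave as mature cells with a single coreceptor. Recombination genes are shut off before T cells leave the thymus, so they mark immature thymocytes, whereas the CD3 chains, CD2, CD5 and CD28 are made by thymocytes and by mature T cells alike. Ctla4, Icos and Foxp3 are typical of activated and regulatory T cells. The thymus arises from pharyngeal pouches close to the thyroid gland, and small pieces of thymic tissue are known to occur in the neck of healthy mice. In whole-gland RNA, fewer cells of a type and less RNA per cell cannot be told apart.

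Promoter sequences of 22 of the 34 genes were in the RefSeq table used (build GRCm38.p6). The 250 bases before the transcription start are shown for the 4 genes of immature thymocytes, by which the mice are told apart below, for Cd3g of the antigen receptor complex, which was high in the same mice, and for Ctla4, which was not. Capitals mark matches on either strand to CAGNTG (the E-box of E proteins), TGTGGT (RUNX), CTTTGA or CTTTGT (TCF and LEF factors), GGAAGT (ETS) and TGGGAA (Ikaros), where the last 4 letters of the Ikaros motif can form the start of the ETS motif.
Rag1 (chr2:101649533-101649782, minus strand): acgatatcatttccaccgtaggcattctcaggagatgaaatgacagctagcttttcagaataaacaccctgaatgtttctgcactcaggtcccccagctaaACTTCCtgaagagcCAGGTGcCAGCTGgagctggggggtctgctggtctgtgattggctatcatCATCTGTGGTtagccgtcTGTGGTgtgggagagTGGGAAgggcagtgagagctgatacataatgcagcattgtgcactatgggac
Rag2 (chr2:101624462-101624711, plus strand): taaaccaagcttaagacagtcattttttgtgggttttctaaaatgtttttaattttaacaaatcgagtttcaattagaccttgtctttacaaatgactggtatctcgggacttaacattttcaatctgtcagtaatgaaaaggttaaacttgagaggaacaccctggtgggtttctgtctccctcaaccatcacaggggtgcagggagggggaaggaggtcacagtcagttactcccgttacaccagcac
Dntt (chr19:41029025-41029274, plus strand): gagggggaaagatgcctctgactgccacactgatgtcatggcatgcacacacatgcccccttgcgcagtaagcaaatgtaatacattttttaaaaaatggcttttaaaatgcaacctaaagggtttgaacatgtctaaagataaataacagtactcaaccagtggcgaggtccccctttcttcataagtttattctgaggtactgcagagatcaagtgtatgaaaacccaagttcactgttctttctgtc
Ptcra (chr17:46763713-46763962, minus strand): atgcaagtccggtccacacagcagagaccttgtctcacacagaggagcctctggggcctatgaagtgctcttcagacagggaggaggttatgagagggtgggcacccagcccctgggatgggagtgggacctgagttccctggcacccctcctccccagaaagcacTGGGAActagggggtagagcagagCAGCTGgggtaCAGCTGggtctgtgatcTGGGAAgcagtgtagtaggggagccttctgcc
Cd3g (chr9:44980432-44980681, minus strand): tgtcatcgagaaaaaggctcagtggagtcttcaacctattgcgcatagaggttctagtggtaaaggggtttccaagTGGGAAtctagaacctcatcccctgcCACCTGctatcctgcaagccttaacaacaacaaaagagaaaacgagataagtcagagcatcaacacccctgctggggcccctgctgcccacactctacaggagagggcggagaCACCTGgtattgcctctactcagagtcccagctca
Ctla4 (chr1:60908775-60909024, plus strand): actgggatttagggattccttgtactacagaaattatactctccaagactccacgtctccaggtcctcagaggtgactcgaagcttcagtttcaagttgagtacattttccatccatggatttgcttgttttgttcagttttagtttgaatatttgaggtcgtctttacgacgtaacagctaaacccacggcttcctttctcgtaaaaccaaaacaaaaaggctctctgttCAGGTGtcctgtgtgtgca
The Rag1 window held 3 E-boxes, 2 RUNX matches, 1 ETS match and 1 Ikaros match. The Ptcra window held 2 E-boxes and 2 Ikaros matches, the Cd3g window 2 E-boxes and 1 Ikaros match, and the Ctla4 window 1 E-box. Rag2 and Dntt held none of these letters in this window, while both were high in the same mice as Rag1. Rag1 and Rag2 are neighbours on chromosome 2, 5723 bases apart. Over the 22 windows, 59.1% held an E-box against 44.8% of all 32851 RefSeq windows of this length, 9.09% against 14% held a RUNX match, 27.3% against 27.6% a TCF/LEF match, 27.3% against 19.7% an ETS match and 36.4% against 21.6% an Ikaros match. Such matches describe the letters only.

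Among the genes of immature thymocytes, Rag1, Rag2 and Dntt were higher in the same 6 Xb130-/- mice, by 2.48 to 5.20, 0.81 to 3.68 and 1.30 to 5.13 log2 units over the mean of the Xb130+/+ mice of the same age, and Ptcra, which encodes the alpha chain of the pre-T cell receptor, was clearly higher only in LH7725. Rag1, whose product cuts DNA at antigen receptor genes together with RAG2, had levels of 5.06, 8.63, 8.85 and 8.11 in the W2 Xb130-/- mice and of 5.42, 5.49, 5.33 and 6.29 in the W2 Xb130+/+ mice. At W4 the levels of Rag1 were 5.62, 5.31, 9.04 and 6.0 in Xb130-/- and 5.51, 5.40, 5.80 and 6.34 in Xb130+/+ mice. At W12 they were 5.24, 4.91, 10.46 and 9.61 in Xb130-/- and 5.45, 5.06, 5.46 and 5.05 in Xb130+/+ mice. Thus 3, 1 and 2 of the 4 Xb130-/- mice stood above all Xb130+/+ mice of their age, the remaining Xb130-/- mice lay within or slightly below the Xb130+/+ range, and the groups overlapped at every age. LH7725 was 36.8 times and LH7727 20.4 times the mean of the W12 Xb130+/+ mice, against 5.56 to 9.72 times for the other 4 high mice. The mean differences (Xb130-/- minus Xb130+/+) were 2.03 (SE 1.03, adjusted p = 0.286) at W2, 0.73 (SE 1.03, adjusted p = 0.760) at W4 and 2.30 (SE 1.03, adjusted p = 0.127) at W12, so that no age passed the threshold of 0.05 on the p-value adjusted over all genes.

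**Figure D1:**
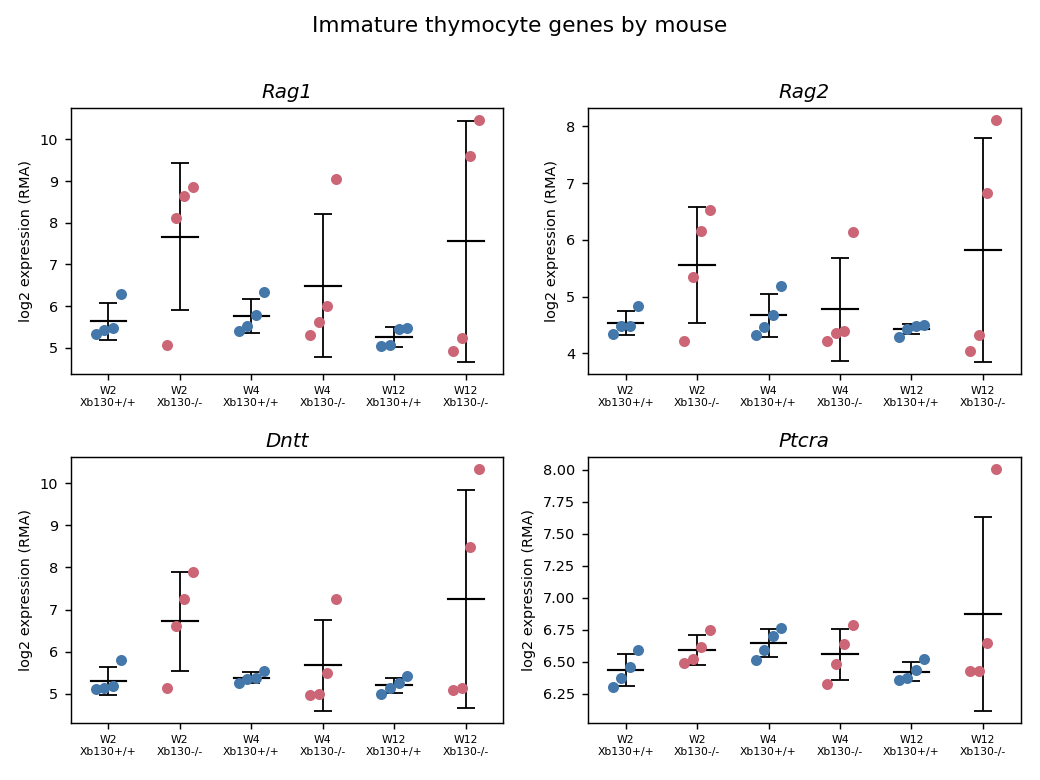
Log2 expression (vertical axis) of Rag1, Rag2, Dntt and Ptcra in each mouse, by age and genotype (blue, Xb130+/+; red, Xb130-/-); each point is a mouse and black marks give the mean and SD of 4 mice. For Rag1 the Xb130-/- mice split into high and low mice at each age, with 8.11 to 8.85 in the W2 mice that are high and 5.06 in LH7705, while for Ptcra a single mouse, LH7725 at 8.0, stands apart.

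Dntt encodes the polymerase TdT, which adds bases at the joints of rearranged receptor genes. Its levels in Xb130-/- mice were 5.13, 7.89, 7.25 and 6.60 (W2), 4.99, 4.97, 7.25 and 5.50 (W4) and 5.13, 5.09, 10.33 and 8.48 (W12), and those of Xb130+/+ mice ranged from 5.10 to 5.79, 5.25 to 5.55 and 4.98 to 5.42. The same 6 mice were high as for Rag1, and LH7705, LH7713, LH7715, LH7719, LH7721 and LH7723 lay within or close to the Xb130+/+ range. The difference was 1.41 (SE 0.82, adjusted p = 0.370), 0.30 (SE 0.82, adjusted p = 0.888) and 2.06 (SE 0.82, adjusted p = 0.0851) at the 3 ages. Rag2 had 4.21, 6.16, 6.53 and 5.34 (W2), 4.38, 4.22, 6.13 and 4.35 (W4) and 4.04, 4.33, 8.11 and 6.83 (W12) in Xb130-/- mice, against Xb130+/+ ranges of 4.34 to 4.83, 4.33 to 5.19 and 4.29 to 4.50. LH7711, the lowest of the high mice for Rag2 at 5.34, stood 0.81 above the mean of its Xb130+/+ controls, and LH7725 stood 3.68 above. For Ptcra the levels in Xb130-/- mice were 6.61, 6.52, 6.49 and 6.74 (W2), 6.64, 6.33, 6.79 and 6.48 (W4) and 6.42, 6.43, 8.0 and 6.64 (W12). Apart from LH7725 these values differed by little from those of Xb130+/+ mice, which ranged from 6.30 to 6.59 at W2, 6.52 to 6.76 at W4 and 6.36 to 6.52 at W12. No test of Rag2, Dntt or Ptcra passed at any age, with the smallest adjusted p at W12 for Dntt, and in the exact permutation test of 4 against 4 mice, which cannot give a two-sided p under 0.0286, Dntt gave p = 0.114 at W2, 0.914 at W4 and 0.343 at W12.

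Over all 34 genes, few passed the test of the group means, although many differed widely between single mice. At W2, 3 genes were higher in Xb130-/- mice (Ikzf1, Trgj2 and Trgj3) and 0 were lower, while of all genes tested 4.17% were higher and 3.28% lower. At W4, 0 of the 34 passed in limma, with all-gene shares of 5.08% and 4.35%, and 1 had an unadjusted p under 0.05. At W12, 5 were higher (Cd4, Slamf6, Ikzf1, Ets1 and Arpp21) and 0 lower, beside 9.42% higher and 10.5% lower over all genes. The 3 and 5 genes are 8.82% and 14.7% of the list, within 2 genes of the background at either age. In limma, 10 and 24 of the 34 had an unadjusted p under 0.05. The share of all genes under this unadjusted threshold was not computed for any contrast, and the members vary together, so such counts are no result about the list. The counts moved when single arrays were left out: at W12, 22 genes passed without LH7721, 20 without LH7723, and 3 without LH7725 or LH7727, and at W2, 6 passed without LH7705 and 0 without any other W2 mouse of either genotype. Leaving out an array of W4 or W12 gave 1 to 5 calls at W2, and 1 for most of them. Without the 6 arrays with high Rag1, 0 genes passed at W2 (1 Xb130-/- mouse left) and at W4 (3 left), with medians over the 34 genes of -0.14 and -0.03, and the W12 values without them are given below. Across W2, W4 and W12 the 34 genes had median differences of 0.97, 0.29 and 1.27, next to medians over all genes of -0.02, -0.02 and -0.05. The 4 Xb130-/- values lay completely above the 4 Xb130+/+ values for 4 of the 34 genes at W2 (Cd4, Ikzf1, Trgj2 and Trgj3; 6.25% of all genes), for 0 at W4 (6.89%) and for 4 at W12 (Cd4, Slamf6, Ikzf1 and Ets1; 10.4%).

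The spread among Xb130-/- mice was wide for these genes. The SD of the 4 mice was larger in Xb130-/- than in Xb130+/+ mice in 31 (W2), 33 (W4) and 34 (W12) of the 34 genes, next to 45.9%, 47.3% and 56.1% of all genes. For Xb130-/- mice the median SD of the 34 genes was 0.73, 0.66 and 1.51, compared with 0.20, 0.21 and 0.17 in Xb130+/+ mice. Since the genes vary together in the same mice, these counts describe the mice and are no test. The same 6 mice held the 6 highest of the 24 values for 24 of the 34 genes, beside 138 of all 23185 genes (0.595%), where Rag1, Rag2 and Dntt had served to pick the mice. The 10 genes for which this did not hold were Ptcra, Cd247, Cd7, Ikzf1, Ikzf3, Ets1, Tox, Ctla4, Icos and Foxp3.

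**Figure D2:**
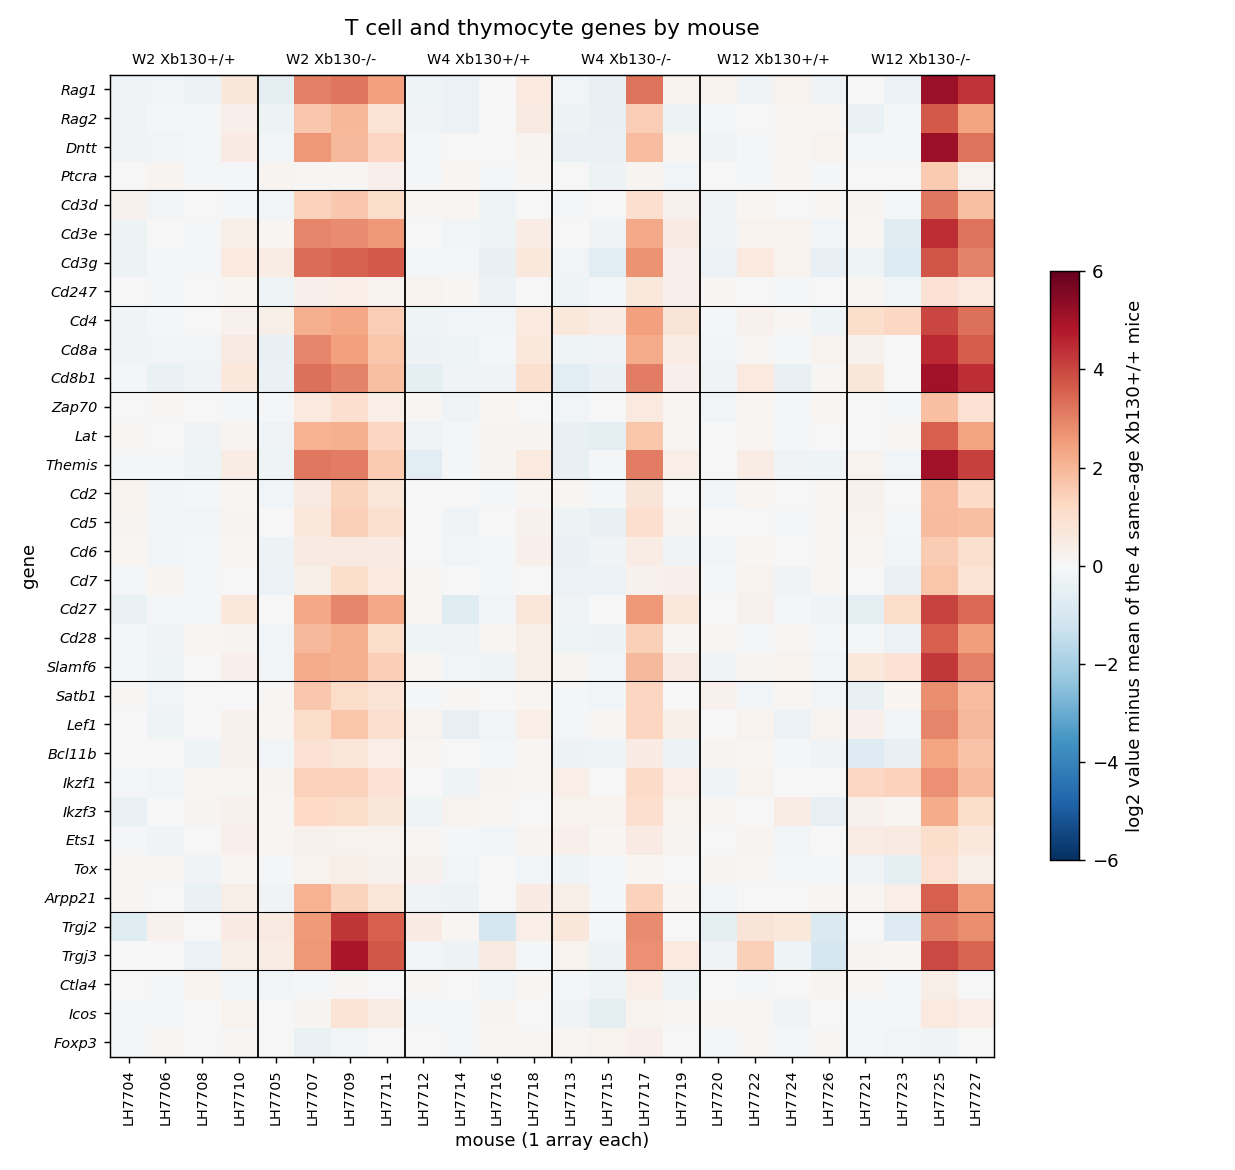
Log2 value of each of the 34 genes (rows, in the order of their roles) in each of the 24 mice (columns), minus the mean of the 4 Xb130+/+ mice of the same age; red is higher, blue is lower, and black lines separate groups and roles. The columns of LH7707, LH7709, LH7711, LH7717, LH7725 and LH7727 are red for most rows, the other Xb130-/- columns are pale apart from rows such as Cd4 and Ikzf1 at W12, the rows of Ctla4 and Foxp3 are pale throughout, and that of Icos reaches 0.84 in LH7709.

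The chains of the CD3 complex, which carry the signal of the T cell receptor into the cell, followed Rag1 in nearly the same mice. Cd3e had levels of 6.85, 9.67, 9.57 and 9.32 (W2), 7.09, 6.86, 9.32 and 7.53 (W4) and 7.46, 6.66, 11.82 and 10.64 (W12) in Xb130-/- mice, while the Xb130+/+ mice ranged from 6.45 to 7.1, 6.79 to 7.51 and 7.18 to 7.59. At W12, LH7723 had a lower level of Cd3e than every Xb130+/+ mouse and LH7725 the highest of all 24, so the range within this group was 5.16 log2 units. Cd3g had 6.84, 9.74, 9.95 and 10.08 in the W2 Xb130-/- mice, with LH7711 the highest, against 6.10, 6.28, 6.28 and 6.98 in the Xb130+/+ mice. Its difference at W2 was 2.74 (SE 0.87, adjusted p = 0.0583), with LH7705 inside the Xb130+/+ range. Cd3d stood 1.01 to 3.15 log2 units above the same-age Xb130+/+ mean in the 6 mice, and Cd247, the zeta chain, 0.22 to 0.87 above it. Cd247 also had 6.70, 6.57, 6.20 and 6.51 in the W4 Xb130+/+ mice and 6.82 in LH7719, so that its groups overlapped more than those of the CD3 chains. Cd3g, Cd3d and Cd3e lie side by side on chromosome 9, where the start sites of Cd3g and Cd3d are 1338 bases apart. None of the 4 genes passed the test at any age.

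Both coreceptors were high together. Cd8b1, the beta chain of CD8, had levels of 6.02, 9.74, 9.40 and 8.22 (W2), 6.04, 6.37, 9.84 and 7.05 (W4) and 6.83, 6.12, 11.17 and 10.60 (W12) in Xb130-/- mice. In Xb130+/+ mice Cd8b1 had 6.35, 6.03, 6.22 and 7.06 (W2), 6.21, 6.54, 6.53 and 7.69 (W4) and 5.96, 6.73, 5.68 and 6.24 (W12). The 6 mice with high Rag1 were again the highest, and LH7710 and LH7718 were the highest Xb130+/+ mice, as they were for Rag1, Rag2, Dntt and Cd8a. Cd8a, the alpha chain, ranged from 5.71 to 10.16 among the W12 Xb130-/- mice and from 5.54 to 5.93 among the Xb130+/+ mice, with a difference of 2.09 (SE 0.81, adjusted p = 0.0746). Cd4 differed from the CD8 chains in that every Xb130-/- mouse lay above the mean of its Xb130+/+ controls, by 0.37 to 1.24 log2 units in the 6 mice with low Rag1 and by 1.48 to 4.0 in the 6 with high Rag1.

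Of the molecules next to the receptor, Themis, a protein needed for thymocyte selection, had levels of 4.91, 8.35, 8.23 and 6.76 (W2), 4.83, 5.19, 8.33 and 5.65 (W4) and 5.21, 4.85, 10.03 and 9.10 (W12) in Xb130-/- mice. The Xb130+/+ mice ranged from 4.94 to 5.63, 4.59 to 5.85 and 4.74 to 5.45, and the same 6 mice stood above all others. Lat, the scaffold of the receptor signal, stood 1.30 to 3.60 log2 units above the same-age Xb130+/+ mean in these mice and -0.53 to 0.11 in the other Xb130-/- mice. Zap70, the kinase that binds the CD3 and zeta chains, stood 0.41 to 1.81 above it in the 6 mice and -0.18 to 0.11 in the others. None of the 3 genes passed the test, with adjusted p = 0.0988 for Themis, 0.0987 for Lat and 0.116 for Zap70 at W12.

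Among the receptors of adhesion and costimulation, Cd27, a receptor of the tumor necrosis factor family, was among the most variable. Its levels were 5.42, 7.75, 8.40 and 7.76 (W2), 5.44, 5.68, 8.23 and 6.26 (W4) and 5.31, 6.92, 9.89 and 9.21 (W12) in Xb130-/- mice, against 5.03 to 6.07, 4.94 to 6.38 and 5.61 to 6.09 in Xb130+/+ mice. LH7723 had an intermediate level at W12, 1.08 above the Xb130+/+ mean, and the groups overlapped through LH7721. Cd28, the receptor of the costimulatory signal, stood 1.09 to 3.57 log2 units above the same-age Xb130+/+ mean in the 6 mice with high Rag1, and the adhesion receptor Cd2 stood 0.52 to 1.84 above it. Cd5 and Cd6, which damp the receptor signal, stood 0.61 to 1.92 and 0.46 to 1.54 above it, and Cd7 stood 0.24 to 1.66 above. In LH7707 these 4 genes (Cd2, Cd5, Cd6 and Cd7) stood no more than 0.61 above it, although its Cd8b1 was 3.32 and its Themis 3.17 above the Xb130+/+ mean. Of the 7 genes of this role, Slamf6 passed at W12 and 0 at W2 or W4.

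**Figure D3:**
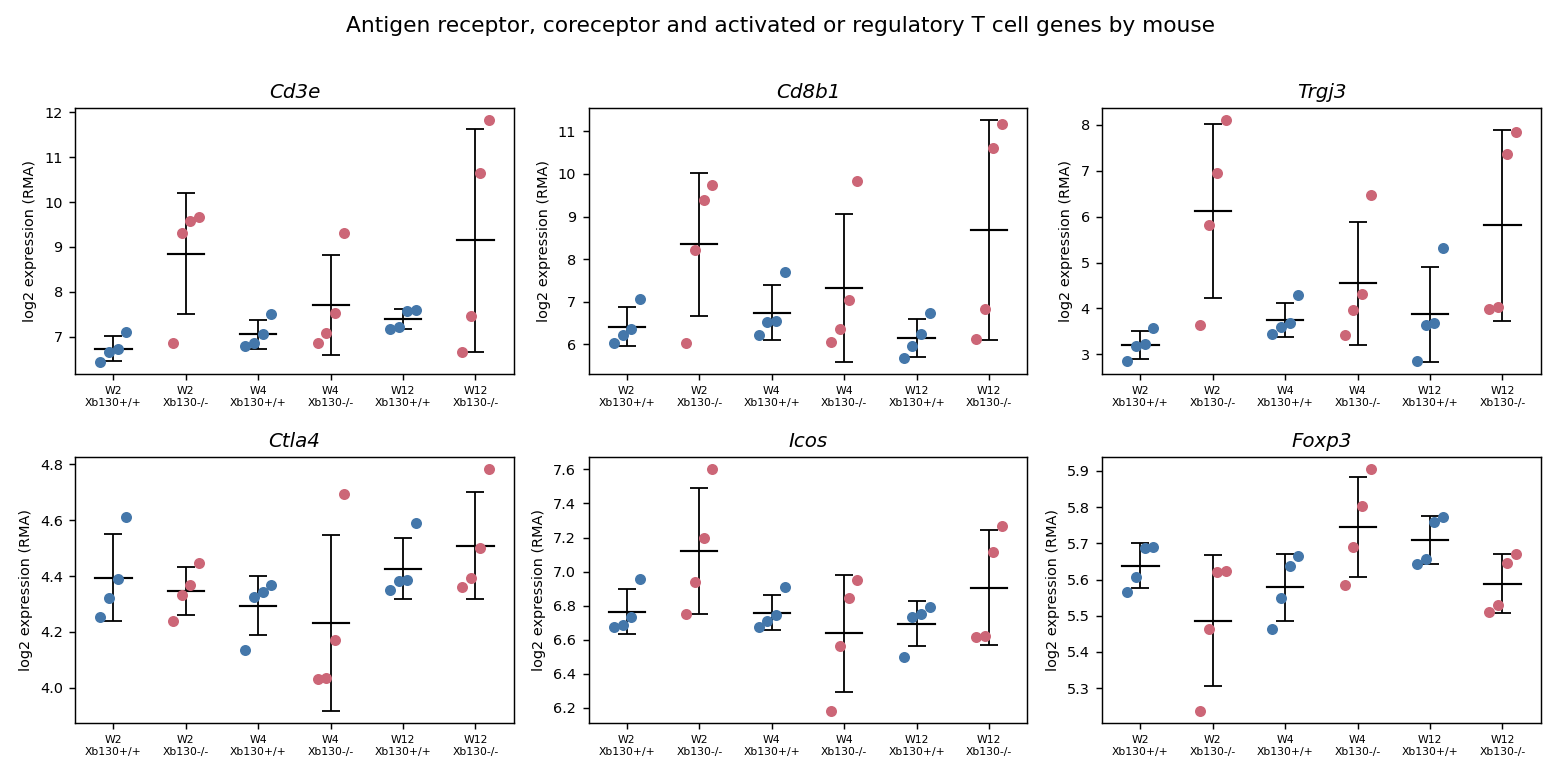
Log2 expression (vertical axis) of Cd3e, Cd8b1, Trgj3, Ctla4, Icos and Foxp3 in each mouse, by age and genotype (blue, Xb130+/+; red, Xb130-/-); each point is a mouse and black marks give the mean and SD of 4 mice. The vertical axes differ in range: Cd3e spans 6.45 to 11.82, whereas Foxp3 spans 5.24 to 5.90 and Ctla4 4.03 to 4.78.

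The regulators of transcription and RNA did not all follow the same mice. Satb1, which organizes chromatin in thymocytes, Lef1, a partner of beta-catenin, Bcl11b, which commits precursors to the T cell fate, and the RNA-binding protein gene Arpp21 were highest in the 6 mice with high Rag1. Arpp21 had 4.79, 7.09, 6.30 and 5.71 (W2), 5.17, 4.70, 6.21 and 4.94 (W4) and 4.79, 5.07, 8.26 and 7.19 (W12) in Xb130-/- mice, and the W12 Xb130+/+ mice had 4.48, 4.71, 4.67 and 4.80. LH7721 lay below the highest Xb130+/+ mouse, and the difference at W12 was 1.66 (SE 0.57, adjusted p = 0.0423), a call that was lost when any W12 array other than LH7721 or LH7723 was left out. Over the same-age Xb130+/+ mean, Satb1 stood 0.83 to 2.80 log2 units higher in the 6 mice, Lef1 0.99 to 2.94 and Bcl11b 0.41 to 2.37. In the other 6 Xb130-/- mice Bcl11b was below the same-age Xb130+/+ mean in each, with differences of -0.77 to -0.15. At W12, Bcl11b had 6.55, 6.87, 9.69 and 9.02 in Xb130-/- and 7.50, 7.44, 7.24 and 7.11 in Xb130+/+ mice, so LH7721 and LH7723 stood below and LH7725 and LH7727 above all Xb130+/+ mice, and the mean difference was 0.71 (SE 0.45, adjusted p = 0.299). Without LH7725 and LH7727 and the other arrays with high Rag1, the difference of Bcl11b turned to -0.61 (adjusted p = 0.00671), from 2 Xb130-/- mice. This p-value is descriptive only, because the arrays were left out by genes that vary with Bcl11b. Ikzf3, the Ikaros family gene that encodes Aiolos, stood 0.69 to 2.22 above that mean and Tox, a factor of the CD4 lineage, 0.11 to 0.90 above it in the 6 mice.

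Ikzf1, Ets1, Cd4 and Slamf6 were higher in all 4 Xb130-/- mice at W12, including the 2 in which Rag1, Dntt and Cd8a were at or near the level of Xb130+/+ mice. Ikzf1, which encodes Ikaros, a regulator in all lymphocytes and other blood cells, had levels of 8.37, 8.54, 9.88 and 9.03 in Xb130-/- and 6.91, 7.37, 7.14 and 7.14 in Xb130+/+ mice at W12. The lowest Xb130-/- mouse was LH7721 and the groups did not overlap, with a difference of 1.81 (SE 0.28, adjusted p = 8.65e-05), or 3.50 times. Cd4 had 7.86, 8.05, 10.82 and 10.12 against 6.75, 7.09, 6.87 and 6.56 at W12, again with LH7721 the lowest Xb130-/- mouse and no overlap, and its difference was 2.40 (SE 0.54, adjusted p = 0.00326). Ets1, a transcription factor of lymphocytes that endothelial cells also express, had 10.04, 10.14, 10.64 and 10.25 against 9.62, 9.75, 9.44 and 9.57. Its difference of 0.67 (SE 0.12, adjusted p = 0.000463) was small next to that of Cd4, and the closest mice were LH7721 and LH7722. Slamf6, a receptor of the SLAM family, had 6.55, 6.75, 10.13 and 8.93 against 5.71, 6.08, 6.10 and 5.75, and a difference of 2.19 (SE 0.62, adjusted p = 0.0150). Its adjusted p rose to 0.0667 without LH7725 and to 0.0505 without LH7727. With all 6 arrays of high Rag1 left out, which leaves 2 Xb130-/- mice at W12, the differences were 1.31 (adjusted p = 2.69e-05) for Ikzf1, 1.14 (adjusted p = 0.00170) for Cd4, 0.50 (adjusted p = 0.0229) for Ets1 and 0.75 (adjusted p = 0.0227) for Slamf6. In that fit 6.50% of all genes were higher and 6.33% lower, and the median of the 34 genes was 0.0041. Its arrays were left out by genes that vary with these, which also cuts the spread (SE of Ikzf1 0.14). The p-values of that fit are therefore descriptive and lend no further weight to the calls.

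**Figure D4:**
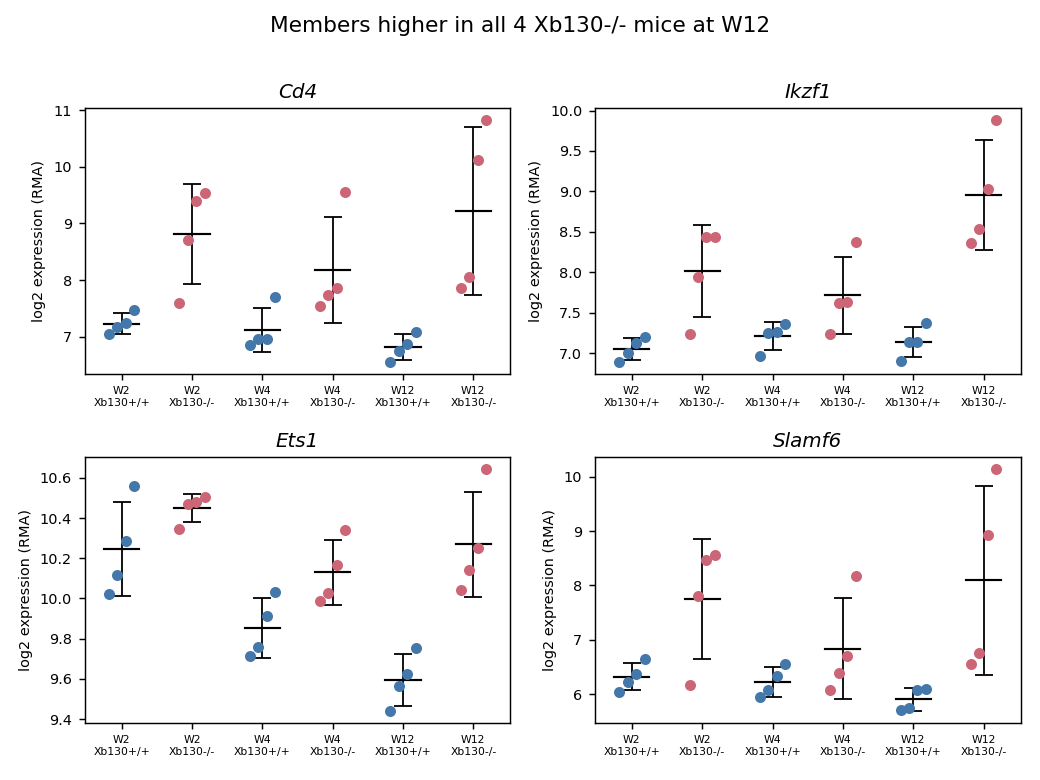
Log2 expression (vertical axis) of Cd4, Ikzf1, Ets1 and Slamf6 in each mouse, by age and genotype (blue, Xb130+/+; red, Xb130-/-); each point is a mouse and black marks give the mean and SD of 4 mice. At W12 the lowest Xb130-/- mouse lies above the highest Xb130+/+ mouse in each panel, for example 8.37 against 7.37 for Ikzf1, while at W4 the groups overlap.

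At earlier ages these genes were less apart. Ikzf1 had 7.24, 8.43, 8.44 and 7.95 against 7.0, 6.90, 7.20 and 7.13 at W2, with no overlap and a difference of 0.96 (SE 0.28, adjusted p = 0.0399), and 7.63, 7.24, 8.37 and 7.62 against 7.25, 6.97, 7.37 and 7.26 at W4, with overlap and a difference of 0.50 (SE 0.28, adjusted p = 0.320). The call of Ikzf1 at W2 was lost when any W2 array other than LH7705 was left out. Cd4 had 7.60, 9.40, 9.54 and 8.71 against 7.04, 7.17, 7.25 and 7.46 at W2, with no overlap but a difference that missed the threshold, 1.58 (SE 0.54, adjusted p = 0.0858). Macrophage genes were also higher at W12, and 6 of 9 measured macrophage markers passed, led by Cd68 (0.81, SE 0.11, adjusted p = 2.34e-05), Adgre1 (0.71, SE 0.11, adjusted p = 8.65e-05) and C1qc (0.65, SE 0.11, adjusted p = 0.000156), against 0 at W2 and 3 at W4. Of all genes, 9.42% were higher at W12, 4.17% at W2 and 5.08% at W4. The mean level of the 9 macrophage markers ranged from 9.16 to 9.43 in W12 Xb130-/- and from 8.82 to 9.05 in W12 Xb130+/+ mice. The part of macrophage genes in the differences of Ikzf1, Cd4, Ets1 and Slamf6 was not tested.

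The joining segments of the T cell receptor gamma chain had the highest genotype differences of all members at W2. Trgj3 had levels of 3.64, 5.82, 8.10 and 6.94 in Xb130-/- and 3.18, 3.22, 2.85 and 3.58 in Xb130+/+ mice at W2. Every Xb130-/- mouse lay above every Xb130+/+ mouse, LH7705 narrowly, with a difference of 2.92 (SE 0.89, adjusted p = 0.0496). Trgj2 had 6.35, 8.37, 10.11 and 9.42 against 5.10, 6.06, 5.79 and 6.29, and a difference of 2.75 (SE 0.84, adjusted p = 0.0487). LH7709 was the highest W2 mouse for both, 29.6 times the Xb130+/+ mean for Trgj3. Relative to the controls of their own age it exceeded even LH7725, by 4.89 against 3.97 for Trgj3 and by 4.30 against 3.10 for Trgj2. At W4 the Trgj3 levels were 3.96, 3.43, 6.47 and 4.32 against 3.59, 3.44, 4.29 and 3.69, and at W12 they were 4.03, 3.99, 7.85 and 7.36 against 3.69, 5.32, 3.63 and 2.87. LH7722 was the highest Xb130+/+ mouse at W12 for both segments, and the groups overlapped at both ages. Both segments span 60 bases of chromosome 13 and belong to a family of similar sequences, and cross-hybridization between them was not tested. Neither call at W2 held when a W2 array other than LH7705 was left out, when most single arrays of the other ages were left out, or when the ages were fitted apart.

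Of the genes of activated and regulatory T cells, Ctla4 and Foxp3 did not follow the mice with high Rag1, and Icos did so in part. Ctla4 lay below and Foxp3 around 5.66, the log2 value at the 30th percentile of the mean level of genes. Flat values this low may hold no detectable signal, which was not tested. The intervals of Ctla4 and Foxp3 therefore cannot show that activated or regulatory T cells were lacking. Foxp3, the lineage factor of regulatory T cells, had 5.62, 5.24, 5.46 and 5.62 against 5.57, 5.69, 5.61 and 5.69 at W2, 5.69, 5.80, 5.90 and 5.59 against 5.55, 5.46, 5.64 and 5.66 at W4 and 5.64, 5.53, 5.51 and 5.67 against 5.66, 5.77, 5.64 and 5.76 at W12. In LH7725, the mouse with the highest Rag1, Foxp3 was -0.20 from the Xb130+/+ mean. The 95% interval of its genotype difference ran from -0.32 to 0.02 at W2, from -0.00087 to 0.34 at W4 and from -0.29 to 0.05 at W12. Ctla4, an inhibitory receptor, ranged from 4.36 to 4.78 in Xb130-/- and from 4.35 to 4.59 in Xb130+/+ mice at W12, with intervals of the difference from -0.30 to 0.21, -0.31 to 0.19 and -0.17 to 0.34 at the 3 ages. Icos, a costimulator of activated T cells, stood 0.18 to 0.84 above the same-age Xb130+/+ mean in the 6 mice with high Rag1 and -0.58 to 0.09 in the other Xb130-/- mice, with intervals from -0.01 to 0.72, -0.49 to 0.24 and -0.16 to 0.58. None of the 3 passed at any age, and their median differences were -0.05, -0.06 and 0.08 from W2 to W12, when the 4 genes of immature thymocytes had 1.22, 0.20 and 1.73.

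The 6 mice with high Rag1 differed among themselves. Relative to the Xb130+/+ mean of the same age, LH7725 was the highest of them for 29 of the 34 genes, LH7709 for Trgj2, Trgj3 and Icos, and LH7717 for Ctla4 and Foxp3. In LH7725, 29 of the 34 genes were more than 1 log2 unit above the same-age Xb130+/+ mean, beside 4.35% of all genes, and in LH7711 15 were, beside 1.69%. The other high mice had 21 to 24 such genes, beside 1.25% to 2.73% of all genes. In contrast, LH7705, LH7713, LH7715 and LH7719 had 0 (0.608% to 1.12% of all genes), LH7721 had 2 (1.68%) and LH7723 had 3 (2.43%). The median of the 34 differences was 3.02 in LH7725, 1.92 in LH7727, 1.53 in LH7709, 1.5 in LH7707, 1.30 in LH7717 and 0.92 in LH7711. At W2 the order depended on the gene: LH7709 was the highest of the 3 high mice for 20 genes, such as Rag1, Cd27, Lef1 and both gamma segments, LH7707 for 11, such as Dntt, Cd8a, Cd8b1, Themis, Satb1 and Arpp21, and LH7711 for 3, Ptcra, Cd3g and Foxp3. In LH7707 the gamma segments were 2.58 above the Xb130+/+ mean and the coreceptors 2.94 (medians), whereas in LH7711 they were 3.67 and 1.67.

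With age, no member passed in Xb130+/+ mice from W2 to W4 or from W4 to W12 in limma, with smallest adjusted p-values of 0.216 and 0.204, both for Ets1, and with 1 gene at an unadjusted p under 0.05 in each interval. Over all genes, 0.0647% rose and 0.0604% fell from W2 to W4, and 5.42% rose and 4.70% fell from W4 to W12. In Xb130-/- mice 0 members passed from W2 to W4 (0.375% of all genes rose and 0.487% fell; 3 members had an unadjusted p under 0.05). From W4 to W12, Ikzf1 rose by 1.24 (SE 0.28, adjusted p = 0.0154) and was the only member called, beside 2.46% of all genes that rose and 1.88% that fell. That call was lost without LH7715. The test of whether the genotype difference itself changed between ages called 0 members for W2 to W4, W4 to W12 and W2 to W12, with 1, 3 and 2 members at an unadjusted p under 0.05 and the smallest adjusted p, 0.124, for Ikzf1 from W4 to W12. Over all genes, these tests called 0.0216% and 0.0129%, 0.587% and 0.414%, and 1.30% and 0.970% in the 2 directions. The member median was lower at W4, with 1 high mouse, than at W2 and W12, with 3 and 2. A link between the median and the number of high mice was not tested, since these mice were picked by genes of the same list.

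Other genes of the pathway behaved in part like the members. Of 27 measured genes of T cell receptor signaling outside the list, 0 were higher at W2, 1 was higher (Malt1) and 1 lower (Fyn) at W4. At W12 the test called 9 in the direction of Xb130-/- mice and 0 in the other, led by Grap2, an adaptor of the LAT complex (1.21, SE 0.37, adjusted p = 0.0228), Ptprc, which encodes CD45 of all leukocytes (1.04, SE 0.30, adjusted p = 0.0184), and Lcp2, which encodes SLP-76 (0.87, SE 0.30, adjusted p = 0.0429). Of 29 genes of thymocyte development, 4 were higher at W2 (Hes1, Notch1, Runx1 and Sox4), 2 higher (Hes1 and Sox4) and 1 lower (Plac8) at W4, and 9 higher and 1 lower (Cd1d1) at W12. Among the called genes, the largest differences at W12 were those of Endou (1.54, SE 0.33, adjusted p = 0.00191) and Spo11, a gene of meiotic recombination (1.36, SE 0.27, adjusted p = 0.000920). The transcription factor Runx1 (1.09, SE 0.21, adjusted p = 0.000822) came next. Ccr9 of the same list had 6.46, 6.47, 10.25 and 9.445 in W12 Xb130-/- and 6.60, 6.48, 5.84 and 6.575 in W12 Xb130+/+ mice. Of 9 measured receptor segments, Trgj1 (2.26, SE 0.56, adjusted p = 0.0141) and Trgc1 (1.92, SE 0.54, adjusted p = 0.0294) were higher at W2 and 0 passed at W4 or W12. The constant segment of the beta chain Trbc2 reached 12.93 in LH7725 and 12.35 in LH7707, against 8.38 in LH7705. The 6 mice with high Rag1 held the 6 highest values for 9 of the 27 signaling genes, for 6 of the 29 thymocyte genes and for 4 of the 9 segments (Trac, Trbc1, Trbc2 and Trgc2), beside 0.595% of all genes. The genes named in these lists for a count of 5 or fewer, and Ccr9, were chosen after their values were seen. By the smallest root mean square difference over the 24 arrays from the mean profile of Rag1, Rag2, Dntt and Ptcra, after subtracting the Xb130+/+ mean of the age, the most similar genes outside the list were Tespa1, Rasgrp1, Rhoh, Trbv12-2, Traj40, Cd96, Traj30, Sit1, Trbj1-2 and Traj38. The differences ranged from 0.22 to 0.33 log2 units. All 10 were highest in LH7725, which follows from their choice, since the profile itself was highest there (3.90).

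Markers of other cells were set beside these genes. Thymic epithelial genes moved in part with the same mice: Prss16, a protease of cortical epithelium, had 7.63, 9.35, 11.56 and 10.22 in W2, 6.17, 7.13, 9.94 and 6.61 in W4 and 6.49, 7.23, 10.61 and 10.51 in W12 Xb130-/- mice. In Xb130+/+ mice it had 6.70, 6.12, 6.14 and 8.21 (W2), 8.50, 7.65, 5.81 and 9.20 (W4) and 6.29, 9.26, 6.59 and 5.94 (W12), so LH7722, LH7718, LH7712 and LH7710 stood above several Xb130-/- mice. The highest values of Prss16 and of the chemokine gene Ccl25 were those of the 6 mice with high Rag1, with LH7709 the highest for both (11.56 and 10.45), not LH7725. Foxn1, the master regulator of thymic epithelium, lay between 7.58 and 9.05 and Aire between 6.73 and 7.37 over all 24 arrays, and neither separated these mice. Psmb11, the proteasome subunit of cortical epithelium, had 6.90, 7.39, 9.04 and 8.34 (W2), 6.12, 6.48, 7.77 and 6.36 (W4) and 6.39, 7.05, 8.79 and 8.34 (W12) in Xb130-/- mice, and Tbata had 6.47, 7.16, 8.73 and 7.94 (W2), 6.22, 5.86, 7.39 and 6.09 (W4) and 6.09, 6.43, 8.31 and 7.89 (W12). Both were thus highest within each Xb130-/- group in the mice with high Rag1, and in Xb130+/+ mice Psmb11 reached 7.61 (LH7718), above LH7707, and Tbata 7.78 (LH7712), above LH7707 and LH7717. Over the 13 thymic epithelial markers, 2 were highest in the 6 mice, and the mean of the list ranged from 8.25 to 9.33, 7.98 to 8.71 and 7.94 to 8.98 in Xb130-/- and from 7.94 to 8.39, 7.86 to 8.54 and 7.94 to 8.48 in Xb130+/+ mice at W2, W4 and W12. By the group test, 2 of the 13 were higher at W2 (Ly75 and Cxcl12), 1 at W4 (Krt8) and 2 at W12 (Ly75 and Krt8), and 0 lower. Of all genes, 4.17%, 5.08% and 9.42% were higher and 3.28%, 4.35% and 10.5% lower at these ages. Over all 24 arrays Krt8 lay between 11.89 and 12.52, Cxcl12 between 10.76 and 11.32 and Ly75 between 8.49 and 9.72. For none of these called genes did the 6 mice with high Rag1 hold the 6 highest values. The part of thymic epithelial genes in the levels of the T cell genes was not tested.

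For 0 of 14 effector and cytotoxic T or NK cell markers and 0 of 7 recirculating and naive T cell markers did the 6 mice with high Rag1 hold the 6 highest values, although single genes were high in most of them. Ccr7, the homing receptor of naive T cells, which maturing thymocytes also carry, had its highest values in LH7725 (8.88), LH7709 (8.32), LH7711 (7.99), LH7727 (7.77) and LH7717 (7.56), while LH7707 had 7.06. The mean of the 14 effector markers was 0.58 above the same-age Xb130+/+ mean in LH7725 and 0.58 in LH7709, and 0.05 in LH7717, where the mean of the 4 immature genes was 3.90, 1.80 and 1.69 above. Gzma, a granzyme of cytotoxic cells, had its highest values in LH7725 (7.72), LH7709 (6.46), LH7707 (6.14) and LH7727 (5.50), against 4.66 in LH7717. Of the effector list, Ccl5 was higher at W2 (1.32, SE 0.24, adjusted p = 0.000923) and at W12 (1.18, SE 0.24, adjusted p = 0.00110). The mean of the 7 recirculating markers was 0.85 above in LH7725, 0.50 in LH7727 and 0.04 in LH7707. Of the 7, limma called 1 higher and 1 lower at W2, 1 higher at W4 and 2 higher at W12. The all-gene shares were 4.17% and 3.28%, 5.08% and 9.42%. For 2 of the 7, S1pr1 (9.32 to 9.70 against 8.755 to 9.10) and Klf2 (8.70 to 8.84 against 8.28 to 8.40), all 4 W12 Xb130-/- mice lay above all W12 Xb130+/+ mice, beside 10.4% of all genes. These 4 included LH7721 and LH7723, in which Rag1 was low, with 9.49 and 9.32 for S1pr1 and 8.70 and 8.73 for Klf2. Which cells made these 2 transcripts was not tested. B cell markers ranged from 6.78 to 6.91, 6.59 to 6.86 and 6.70 to 6.95 in Xb130-/- and from 6.94 to 7.23, 6.78 to 7.08 and 6.75 to 6.80 in Xb130+/+ mice (means of 9 genes). Igll1, a gene of B cell precursors, which also use Rag1, Rag2 and Dntt, lay between 4.29 and 5.02 over all arrays. It did not separate the 6 mice, but all its values were below 5.66, the level named above for Ctla4 and Foxp3. Igll1 may therefore hold no detectable signal, which was not tested, and its values cannot show that B cell precursors were lacking. Vpreb2 and Vpreb3 of the same list lay between 8.31 and 9.27 and between 5.64 and 7.26. For 0 of these 3 genes did the 6 mice hold the 6 highest values. Cell cycle genes were higher at W12, where 13 of 15 passed, beside 9.42% of all genes. The mean of the 15 cell cycle genes was 1.33, 1.52, 2.65 and 1.60 above the Xb130+/+ mean in the 4 W12 Xb130-/- mice, so LH7725 was the highest and all 4 mice stood above all Xb130+/+ mice. At W2 the mean was -0.07, 0.90, 1.02 and 1.21 in the Xb130-/- mice, against up to 0.99 in the Xb130+/+ mice. The part of proliferation in the levels of the T cell genes was not tested.

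**Figure D5:**
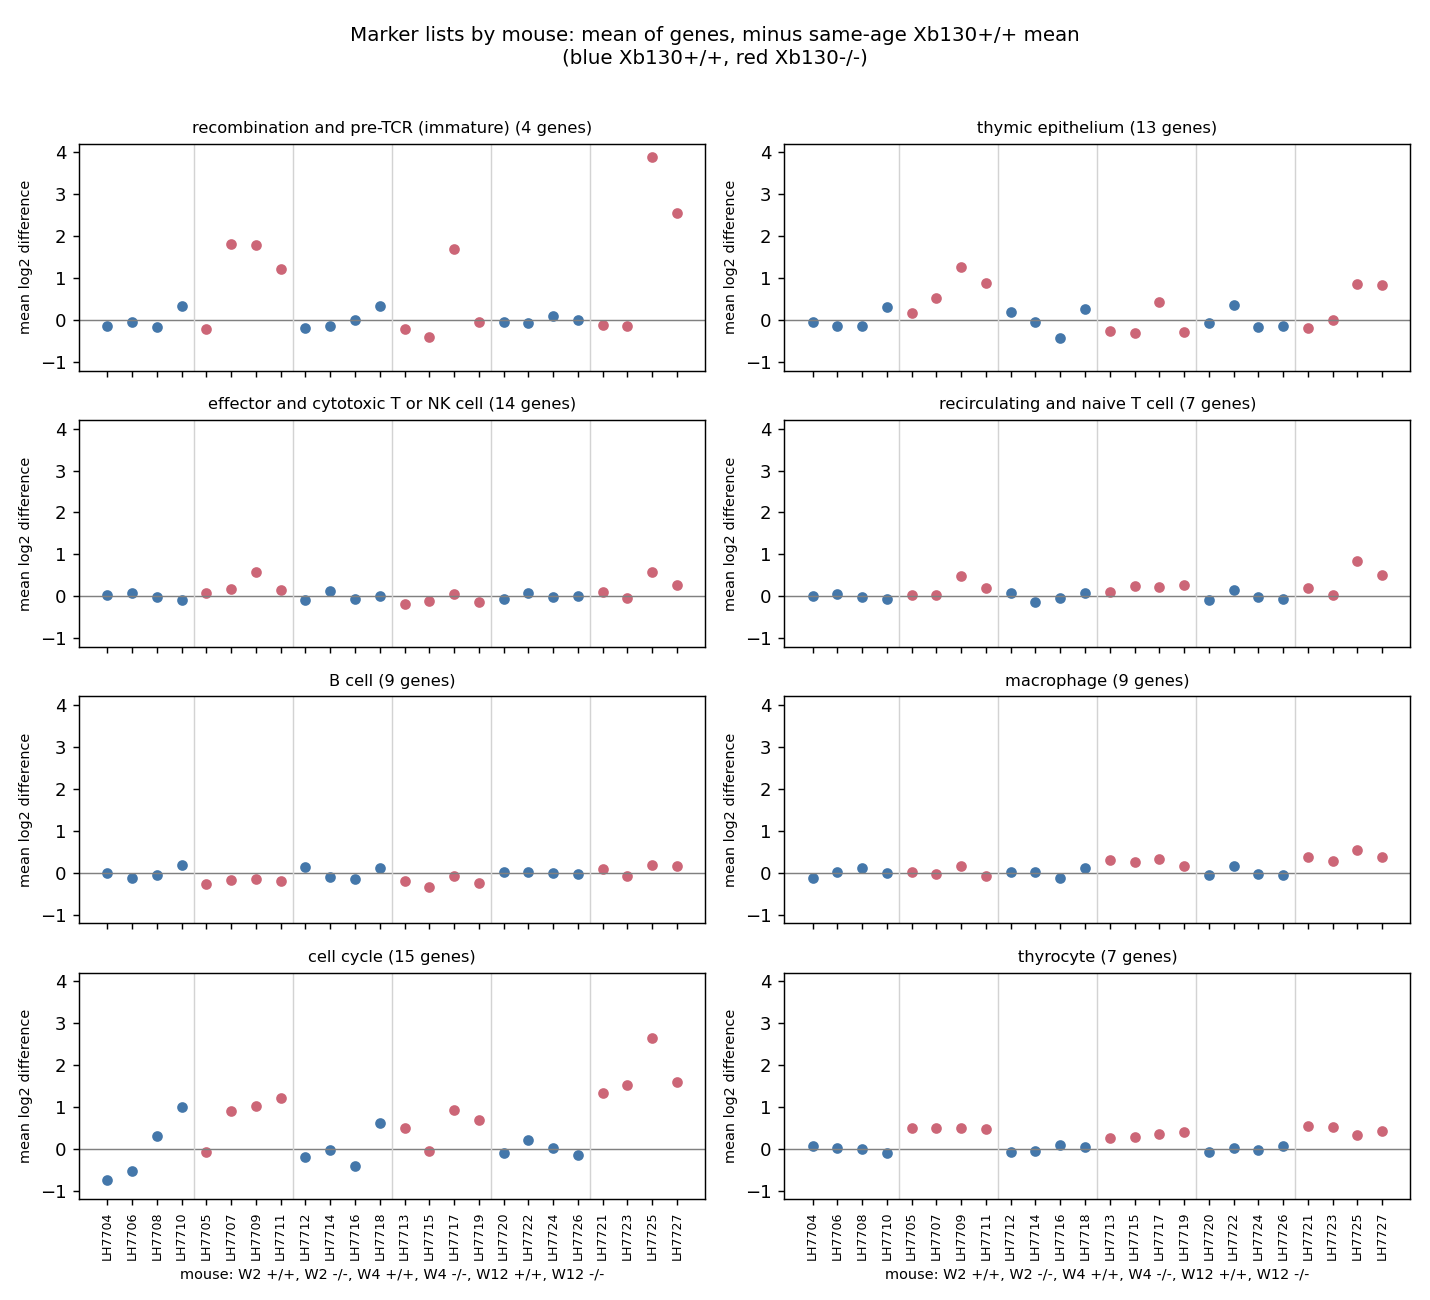
Mean of the genes of a list in each mouse, minus the mean of the 4 Xb130+/+ mice of the same age (vertical axis, log2 units), for 8 lists; blue points are Xb130+/+ and red points Xb130-/- mice, in the order of age and genotype. The immature thymocyte list reaches 3.90 in LH7725 and stays at or below 0.35 in all Xb130+/+ mice, while the effector T cell list reaches no more than 0.58 and the thyrocyte list lies between 0.25 and 0.53 in all 12 Xb130-/- mice.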

How the data were processed

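The authors deposited 1 normalized table of the whole series, made per the labels with the oligo package from Affymetrix mouse gene arrays. Its values are log2 expression values that the authors obtained with RMA (background correction, quantile normalization across arrays and median polish per probe set). The versions of the oligo package and of the array annotation are not given in the sources used here. Since quantile normalization gives all arrays the same distribution, a change in the total RNA of a gland cannot be seen. The values ranged from 2.02 to 14.03, and the array medians over genes from 7.22 to 7.45.

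Of 25206 probe sets, 23185 carry a gene symbol, 1 probe set per gene, and were tested, while 2021 carry none and were not used. The gene numbers of all 23185 matched the RefSeq gene table with the same symbol. Arrays were grouped by the genotype and age in the labels, which give no batch and no pairing. That each array is a separate animal follows from the labels. A linear model with 1 mean for each of the 6 groups was fitted to all 24 arrays with limma 3.58.1 in R 4.3.3 (18 residual and 2.85 prior degrees of freedom), with Benjamini-Hochberg adjustment over the 23185 genes per contrast and a threshold of 0.05 on the adjusted p. SE is the moderated standard error. Exact permutation tests were two-sided. Further tables and plots used Python 3.11.15, pandas 2.3.3 and matplotlib 3.10.9. The fit was tested on simulated data with known changes before use.

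The members and lists were chosen with earlier results of these data known. Named are all listed genes with a probe set, up to 3 called genes per other list with the largest difference and the defining markers needed, and the 10 genes closest to the mean profile of Rag1, Rag2, Dntt and Ptcra. Promoter windows came from a RefSeq table (GRCm38.p6), in which 22 of the 34 genes were matched by symbol and Cd2, Cd4, Cd6, Cd7, Cd8b1, Cd28, Ets1, Icos, Ikzf3, Tox, Trgj2 and Trgj3 were not. Alternatives were the ages fitted apart, a trended and robust variance, array weights, all probe sets, genes above the 30th percentile of the mean level only, a fold change of at least 1.5 on top of the adjusted p, array scaling by medians, a second quantile normalization by age, leaving out each array, and leaving out the 6 arrays with high Rag1, which was chosen after seeing the data.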

Additional observations from a re-analysis of the deposited data

Results flagged for a closer look

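In each group of 4 mice, the gap between the most extreme mouse and its nearest neighbour was compared with the range of the group, and 16 of 204 groups of gene, age and genotype had a ratio above Dixon's 95% critical value. Chance flags about 1 in 20 groups, and the genes are not independent of each other. In the W4 Xb130-/- group, LH7717 was far above the other 3 mice for Rag2 (0.915), Cd4 (0.838), Cd2 (0.830), Satb1 (0.892), Bcl11b (0.891) and Ikzf3 (0.978), where each value is that ratio. In the W2 Xb130-/- group, LH7705 was far below the others for Cd3e (0.875), Cd3g (0.895) and Cd6 (0.929). In the W12 Xb130-/- group, LH7725 was far above the others for Ptcra (0.860).

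Xb130+/+ mice were also found in this way. LH7710 was far above the other W2 Xb130+/+ mice for Rag1 (0.839), Dntt (0.883) and Cd8a (0.936), and LH7718 was above the other W4 Xb130+/+ mice for Cd4 (0.879). Tox was far lower in LH7708 than in the other W2 Xb130+/+ mice (0.914), and Ctla4 was higher in LH7726 than in the other W12 Xb130+/+ mice (0.851).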

How the results depend on the processing

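No paired analysis was possible because the labels give no number or litter shared between the genotypes. Of the 34 genes, 3 were called at W2, 0 at W4 and 5 at W12 in the fit described above. At W2 the count was 1 with the ages fitted apart, 1 with a trended and robust variance, 7 with array weights, and 0 without the 6 arrays with high Rag1, a setting chosen after seeing the data that leaves 1 Xb130-/- mouse, assumed to vary like the other groups. At W12 it was 3 with the ages fitted apart. Leaving out 1 array gave 0 to 6 calls at W2, 0 at W4 and 3 to 22 at W12. From W4 to W12 in Xb130-/- mice the count of 1 became 0 to 2 with 1 array left out (0 without LH7715, 2 without LH7717), and 2 without the 6 arrays, 1 higher and 1 lower. Without these arrays the genotype difference changed for 1 gene from W4 to W12 and for 1 from W2 to W12, where the fit of all arrays called 0. Bcl11b at W12 turned from 0.71 to -0.61 log2 units without the 6 arrays. Ikzf1, Cd4 and Ets1 at W12 passed in every alternative that tested them, with adjusted p from 2.69e-05 to 0.00511, 0.000910 to 0.0369 and 0.000193 to 0.0229, while Slamf6 at W12 ranged from 0.00409 to 0.0841 and was lost with the ages fitted apart and without LH7725 or LH7727. These ranges include the fit without the 6 arrays, whose p-values are descriptive only because the arrays were picked by the outcome. Scaling by array medians moved the median difference of all genes at W12 from -0.05 to -0.11, and the counts of calls stayed within 1.5 times of those above. With 4 mice per group and unequal mice within a group, differences of the size seen in Rag1 could not be told from the spread, and the labels name no batch that could be tested.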

Other observations

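Il2ra encodes the alpha chain of the interleukin 2 receptor, found on early thymocytes and on activated and regulatory T cells. It was highest in the mice with high Rag1 other than LH7707, and it was chosen after its values were seen. Its levels in the W2 Xb130-/- mice were 7.58, 8.12, 10.47 and 10.18, so LH7709 and LH7711 were high and LH7707 was near the Xb130+/+ mice, which had 7.97, 8.22, 7.96 and 7.53. At W12 it had 8.68, 8.39, 9.56 and 9.64 in Xb130-/- and 8.44, 8.88, 8.59 and 8.46 in Xb130+/+ mice, with LH7725 and LH7727 the highest.

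Genes of skeletal muscle varied between single glands, and genes of red blood cells differed by genotype at W12, both without following Rag1. The mean of 6 skeletal muscle genes ranged from -2.66 to 1.5 log2 units around its mean among the W4 Xb130+/+ mice and from 0.05 to 2.67 relative to the Xb130+/+ mean among the W12 Xb130-/- mice. The mean of 3 erythroid genes was 0.75 to 1.92 above the Xb130+/+ mean in the 4 W12 Xb130-/- mice, against -0.12 to 0.09 in the Xb130+/+ mice. At W12, 2 of the 3 were called higher in limma, beside 9.42% of all genes, and 0 were called at W2 or W4. All 3 had the 4 Xb130-/- values completely above at W12, beside 10.4% of all genes. For 0 of the genes of these lists did the 6 mice with high Rag1 hold the 6 highest values.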
